A study of Rattus norvegicus with 10 samples.

Results

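Genes that mark dentate granule cells and CA1 pyramidal cells were read in hippocampal messenger RNA of rats with epilepsy after amygdala stimulation and of sham rats. The list held 8 rat genes, Prox1, Dsp, C1ql2, C1ql3 and Bcl11b for dentate granule cells and Wfs1, Fibcd1 and Man1a1 as genes rich in CA1. A gene was taken where the RefSeq identifier of a row of the count matrix mapped to its symbol. Of the 8 genes, 6 had a row, 1 each, among 32041 features, and these 6 were among the 22447 features that passed the filter on low counts and were tested. No row was matched to Dsp or Bcl11b, so they were not analysed here, and 3 dentate and 3 CA1 genes remained.

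The hippocampus is wired as a chain of fields. Granule cells of the dentate gyrus send mossy fibres to the pyramidal cells of CA3, and CA3 projects on to CA1. The fields differ in the genes their principal cells express, and seizures are known to be followed by loss of hippocampal neurons and by rearrangement of the mossy fibres, so that genes of this kind are read to ask which fields a tissue piece holds.

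The samples were 10 male Sprague-Dawley rats, an outbred strain, weighing 290 to 320 g, each kept in its own cage after surgery. All of them were implanted with an electrode in the left lateral amygdala and with screw electrodes on the skull. The 5 sham rats (rats 1 to 5) received no current. The 5 stimulated rats (rats 6 to 10) were given current after 2 weeks of recovery to evoke status epilepticus. They received pulses of 400 µA at 60 Hz in 100-ms trains for 30 min. Status epilepticus was ended with diazepam at 20 mg/kg. By the methods, stimulation was continued in a rat that did not enter it. Further diazepam was given where the first dose did not suppress it, and the rats concerned were not named. Stimulated rats were monitored by video EEG for 2 weeks before the end of the experiment. No such monitoring was stated for sham rats. The labels do not say whether sham rats were given diazepam. All stimulated rats entered in the study had spontaneous seizures by its methods, and the tissue was taken 3 months after status epilepticus from the left hippocampus, the side of the amygdala electrode. The labels name the tissue dorsal hippocampus, and their protocol describes a piece with CA3 and the dentate gyrus. Rats were processed individually, so the spread within a group is a spread between animals. The rats were adult and the sham rats age-matched, with no age given, and no batch was named.

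The 6 genes were detected in each rat. Total aligned counts were 13552309 to 24086059 per rat, and the share of unaligned reads was 32.01% to 45.14%, highest in stimulated rats 8, 9 and 10. Single members held from 116 counts (Man1a1, rat 8) to 4063 counts (C1ql2, rat 9), so that counting error alone was at most 9.28% of a value. The spread of Man1a1 between sham rats was about as small as its counting error, and that of the other members was larger. Levels are given as CPM, the count divided by the TMM-scaled library size. CPM are not corrected for transcript length, so levels were compared between rats and not between genes. C1ql2 and C1ql3 are related genes, and how a read of 36 bases that matched several transcripts was counted was not stated.

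The promoters of the genes whose levels differed most between single rats are shown first, with the promoter letters they hold. RefSeq promoter sequence of build GRCr8 was matched for 6 of the 8 listed genes, Prox1 and Bcl11b being the exceptions. Each run is the 250 bases before the annotated start, 5′ to 3′ on the strand of the gene, with motif matches in capitals. C1ql2 (chr13:34023652-34023901, plus strand) and C1ql3 (chr17:81038245-81038494, minus strand) were lowest in rat 7. Fibcd1 (chr3:35524143-35524392, minus strand) was lowest in rat 10, and Man1a1 (chr20:33927502-33927751, minus strand) was highest in rat 7.
C1ql2: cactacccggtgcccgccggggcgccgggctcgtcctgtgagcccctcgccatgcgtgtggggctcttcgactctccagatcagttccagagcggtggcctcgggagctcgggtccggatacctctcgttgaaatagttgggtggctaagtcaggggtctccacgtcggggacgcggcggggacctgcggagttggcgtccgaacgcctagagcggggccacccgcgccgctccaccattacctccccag
C1ql3: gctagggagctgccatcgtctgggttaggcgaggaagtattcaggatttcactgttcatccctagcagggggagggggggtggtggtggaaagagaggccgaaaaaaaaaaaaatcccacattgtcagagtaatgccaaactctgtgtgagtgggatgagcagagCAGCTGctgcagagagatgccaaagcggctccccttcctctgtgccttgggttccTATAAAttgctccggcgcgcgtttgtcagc
Fibcd1: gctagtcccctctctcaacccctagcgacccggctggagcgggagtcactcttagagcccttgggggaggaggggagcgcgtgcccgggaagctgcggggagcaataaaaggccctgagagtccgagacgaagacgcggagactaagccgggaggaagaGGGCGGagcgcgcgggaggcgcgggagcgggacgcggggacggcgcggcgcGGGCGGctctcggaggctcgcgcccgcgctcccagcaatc
Man1a1: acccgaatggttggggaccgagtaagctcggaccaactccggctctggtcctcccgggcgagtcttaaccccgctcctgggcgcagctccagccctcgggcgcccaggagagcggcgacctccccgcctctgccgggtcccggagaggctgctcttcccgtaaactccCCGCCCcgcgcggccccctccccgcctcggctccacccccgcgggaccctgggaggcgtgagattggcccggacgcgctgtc

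A search on both strands used a TATA box spelled TATAAA, which 12.9% of 33469 promoters of this length held. It also used a GC box spelled GGGCGG (30.5% of promoters) and an E-box spelled CAGCTG (12% of promoters). Sites of activity-dependent factors were sought as the AP-1 letters TGANTCA (6.34%) and as the cyclic AMP response element written TGACGTCA (1.59%). C1ql3 held the TATA box, starting 30 bases before the start, and an E-box 85 bases before it. Fibcd1 held GC boxes 91 and 40 bases before its start, and Man1a1 held 1 on the reverse strand, 82 bases before its start. The C1ql2 window held none of the 5 motifs. Of the other matched genes, Wfs1 held 2 GC boxes and an E-box, and Dsp held 4 GC boxes. The AP-1 and cyclic AMP letters were in none of the 6 windows. GC content was 68.8% in C1ql2, 54.0% in C1ql3, 72.0% in Fibcd1 and 73.6% in Man1a1, against a median of 51.2% over all promoters.

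It was first asked whether the dentate genes differed between stimulated and sham rats. None of the 3 differed beyond the spread between rats, and the group values overlapped for each. In bulk tissue, fewer cells of a type, less RNA of a gene per cell and a smaller share of a field in the excised piece cannot be told apart. Prox1 (NM_001107201) encodes the homeobox factor that sets and keeps granule cell identity. In sham rats 1 to 5 its level was 22.3, 26.4, 35.9, 28.8 and 27.6 CPM, and in stimulated rats 6 to 10 it was 32.9, 27.0, 21.3, 52.0 and 22.6 CPM. Rat 9 stood above all other rats, rat 8 lay just below the lowest sham rat, and the remaining stimulated rats fell among the sham values. The sham mean was 28.2 ± 4.96 CPM and the stimulated mean 31.2 ± 12.5 CPM (SD, 5 rats per mean). The log2 fold change was 0.15 (SE 0.217, 95% interval -0.32 to 0.61), with an adjusted p = 0.862 in edgeR's quasi-likelihood test, and its sign turned to -0.12 without rat 9.

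C1ql2 (NM_001105949) encodes a secreted C1q-like protein that granule cells release at mossy fibre synapses, where it helps to recruit kainate receptors. Its level in sham rats 1 to 5 was 140.4, 162.5, 165.1, 148.2 and 156.6 CPM, the most even of the 6 genes on the log2 scale. In stimulated rats 6 to 10 it was 126.9, 44.8, 127.9, 207.2 and 141.5 CPM. Rat 7 held 29.0% of the sham mean, rats 6 and 8 lay a little below the sham range, rat 10 lay within it and rat 9 lay above it. Its mean in sham rats was 154.6 ± 10.2 CPM and the stimulated mean 129.7 ± 57.8 CPM (SD, 5 rats per mean). The log2 fold change was -0.25 (SE 0.266, 95% interval -0.83 to 0.32, adjusted p = 0.782 in the same test), and without rat 7 it was -0.05.

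C1ql3 (NM_001109403) encodes a related synaptic protein that acts at the same synapses. In sham rats 1 to 5 it was at 98.9, 111.6, 125.0, 117.2 and 98.9 CPM. In stimulated rats 6 to 10 it was at 83.0, 47.4, 95.7, 88.7 and 134.4 CPM. Rats 6 to 9 all lay below the lowest sham rat, and rat 10 lay above the highest, so the groups overlapped through 1 rat that was the highest of all. The mean of the sham rats was 110.3 ± 11.5 CPM and the stimulated mean 89.9 ± 31.1 CPM (SD, 5 rats per mean). The log2 fold change was -0.30 (SE 0.198, 95% interval -0.72 to 0.13, adjusted p = 0.637). Without rat 10 it was -0.49 with an unadjusted p = 0.0134 and an adjusted p = 0.492 in edgeR's quasi-likelihood test, and without rat 7 it was -0.15.

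**Figure D1:**
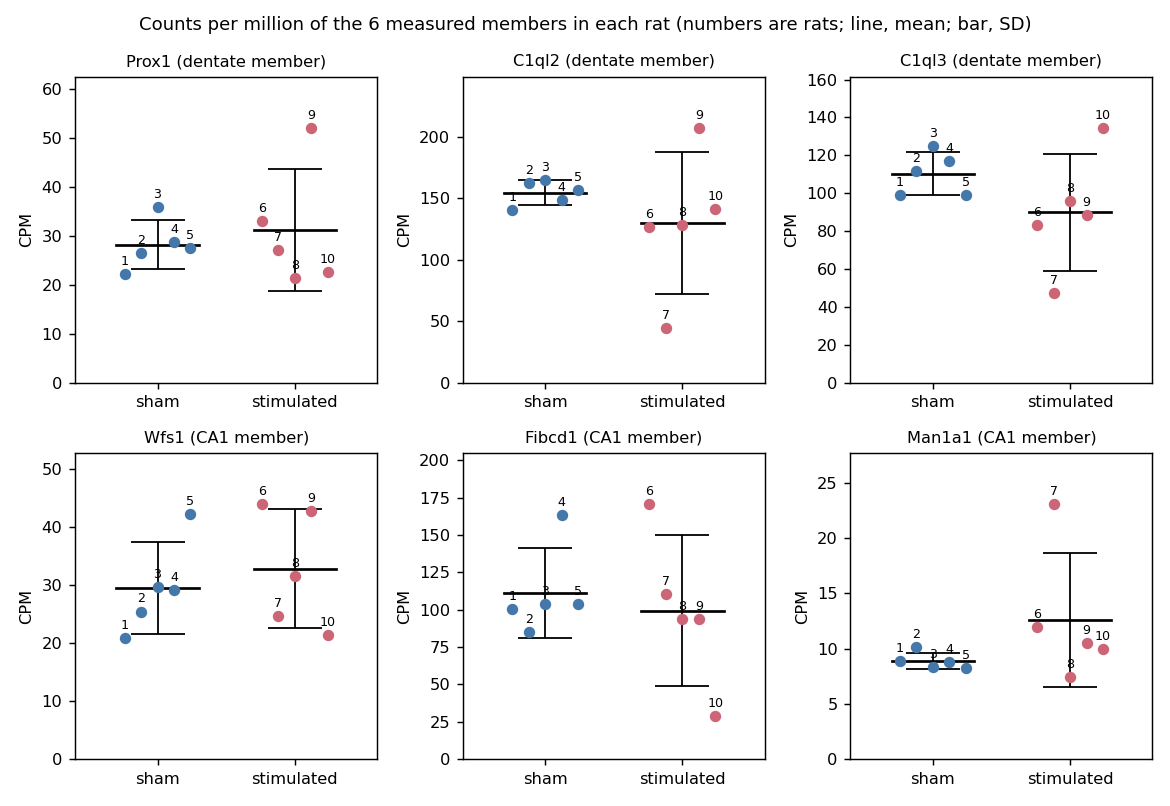
Level in CPM (vertical axes, from 0) of the 6 measured identity genes in 5 sham and 5 stimulated rats, with each point a rat and its number, thick lines the group means and bars the SD. Rat 7 is lowest for C1ql2 (44.8 CPM) and C1ql3 (47.4 CPM) and highest for Man1a1 (23.1 CPM), while rat 10 is lowest for Fibcd1 (28.4 CPM).

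The genes rich in CA1 also did not separate the groups. Wfs1 (NM_031823) encodes wolframin, a membrane protein of the endoplasmic reticulum that labels CA1 pyramidal cells. Its level was 20.9, 25.4, 29.7, 29.2 and 42.3 CPM in sham rats 1 to 5. It was 43.9, 24.6, 31.5, 42.7 and 21.4 CPM in stimulated rats 6 to 10. The stimulated rats covered nearly the whole sham range, with rats 6 and 9 just above it. The sham mean was 29.5 ± 7.97 CPM and the stimulated mean 32.8 ± 10.2 CPM (SD, 5 rats per mean), a log2 fold change of 0.15 (SE 0.218, 95% interval -0.32 to 0.62) with an adjusted p = 0.857 in the quasi-likelihood test of edgeR.

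Fibcd1 (NM_001107829) encodes a transmembrane receptor with a fibrinogen C domain. In sham rats 1 to 5 it was at 100.4, 85.0, 103.7, 163.4 and 104.1 CPM. In stimulated rats 6 to 10 it was at 170.5, 110.3, 93.7, 93.6 and 28.4 CPM. Rat 10 held 25.5% of the sham mean, rat 6 exceeded every sham rat, and the other stimulated rats lay within the sham range, which sham rat 4 widened upward. On average sham rats were at 111.3 ± 30.2 CPM and stimulated rats at 99.3 ± 50.7 CPM (SD, 5 rats per mean). The log2 fold change of -0.17 (SE 0.327, 95% interval -0.87 to 0.54, adjusted p = 0.902) had no stable sign, since it was 0.015 without sham rat 4 and 0.072 without stimulated rat 10.

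Man1a1 (NM_001033656) encodes a Golgi mannosidase that trims N-linked sugar chains. It was at 8.90, 10.1, 8.32, 8.76 and 8.25 CPM in sham rats 1 to 5. It was at 11.9, 23.1, 7.40, 10.5 and 9.96 CPM in stimulated rats 6 to 10. Rats 6, 7 and 9 lay above the sham range, rat 7 at 259.9% of the sham mean, and rat 8 lay below it. The sham mean was 8.88 ± 0.762 CPM and the stimulated mean 12.6 ± 6.09 CPM (SD, 5 rats per mean). The log2 fold change was 0.51 (SE 0.246, 95% interval -0.02 to 1.04), the largest of the 6, with an unadjusted p = 0.0579 and an adjusted p = 0.520 in edgeR's quasi-likelihood test. Without rat 7 it was 0.16.

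Of the 6 genes, 0 had an adjusted p under 0.05 in edgeR's quasi-likelihood test, where 0% of the 22447 tested features did. At an unadjusted p under 0.05 the count was also 0 of 6, against 9.86% of all features (6.7% higher and 3.16% lower in stimulated rats), and at an unadjusted p under 0.001 it was 0 of 6 against 0.174%. The groups overlapped for all 6 genes, and they did not overlap for 1.29% of features. DESeq2 gave 1 of the 6 genes, Man1a1, at an unadjusted p under 0.05, a threshold that 10.4% of all tested features passed in DESeq2. The two-sided exact permutation test over the 252 assignments of 5 rats gave p = 0.81 for Prox1, 0.365 for C1ql2, 0.175 for C1ql3, 0.579 for Wfs1, 0.595 for Fibcd1 and 0.167 for Man1a1, where the smallest p it can give is 0.00794. The median log2 fold change was -0.25 for the 3 dentate genes and 0.15 for the 3 CA1 genes, and it was 0.01 over all tested features. With 1 rat left out these medians were -0.29 to -0.05 (the latter without rat 7) and 0.01 (without rat 6) to 0.31 (without sham rat 5). These intervals do not show that the groups were alike.

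**Figure D2:**
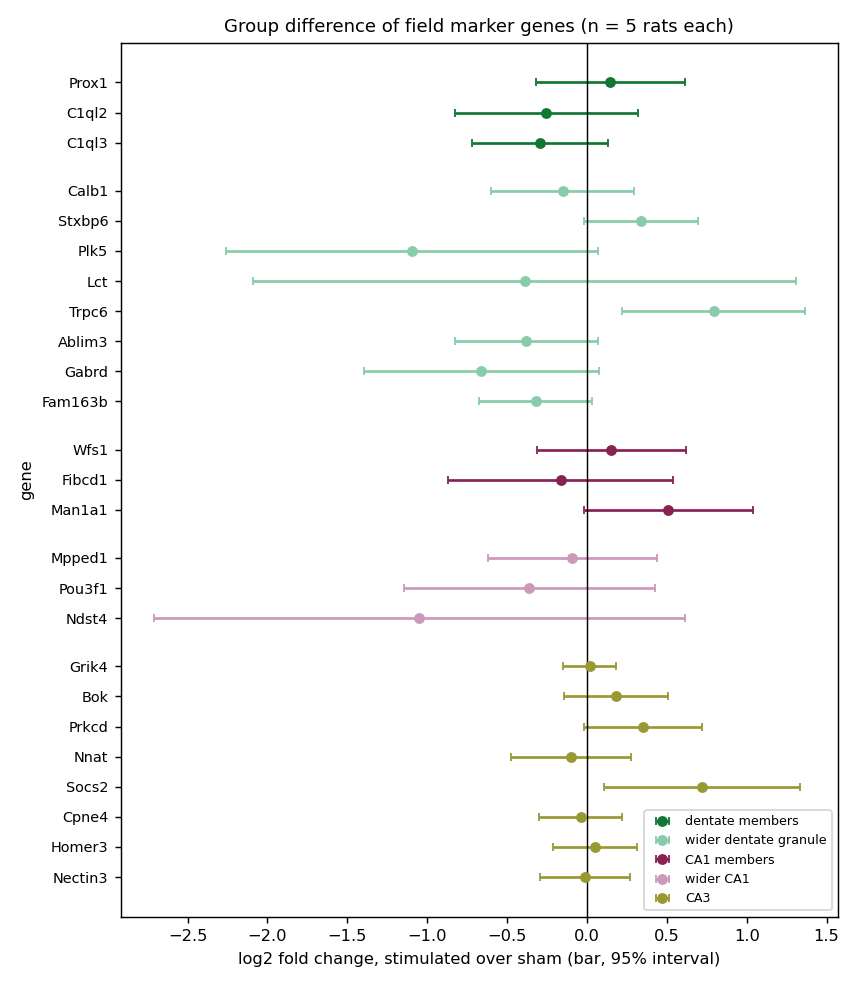
Log2 fold change, stimulated over sham (horizontal axis), of the identity genes and of further genes of the dentate gyrus, CA1 and CA3 that passed the filter, with points the edgeR estimate and bars the 95% interval (n = 5 rats per group). All intervals of the 6 identity genes cross 0, and those of Trpc6 (0.22 to 1.37) and Socs2 (0.11 to 1.33) do not.

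The stimulated rats differed among themselves more than the sham rats did. The SD of log2 CPM was larger in stimulated than in sham rats for each of the 6 genes, by a ratio of 8.50 for C1ql2, 5.09 for Man1a1, 3.62 for C1ql3, 2.73 for Fibcd1, 2.09 for Prox1 and 1.24 for Wfs1. For 5 of the 6 the ratio was at least 2, as it was for 27.7% of all tested features, whose median ratio was 1.37. Among the further lists read below, it was at least 2 for 5 of 8 granule cell, 4 of 6 immature granule cell and 2 of 3 CA1 genes. The same held for 4 of 8 CA3, 2 of 6 CA2 and 0 of 6 oligodendrocyte genes, so a wide spread was not particular to the identity genes. This measure was chosen after the values had been seen and carries no test. Of the 15 values of the dentate genes in stimulated rats, 8 were below the sham range and 3 above it, and of the 15 values of the CA1 genes 2 were below and 6 above. Over all tested features 21.3% of such values were below and 22.7% above. The values of a rat share a library, so they are not independent.

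The rats that stood apart were not the same for each gene. In rat 7, C1ql2 and C1ql3 were below the sham range and Man1a1 above it, while Prox1 stood at 95.8% of its sham mean and Wfs1 and Fibcd1 within the sham range. Relative to Prox1 in the same library, C1ql2 in rat 7 had a log2 difference of -1.74 from the sham mean, and C1ql3 had one of -1.17. In rat 9, Prox1 and C1ql2 were the highest of all rats while C1ql3 was below the sham range, so that C1ql3 relative to Prox1 differed by -1.21 from the sham mean. Granule cell genes of 1 library thus did not shift together in these rats.

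In rat 10 the 3 CA1 genes diverged, with Fibcd1 below the sham range and Wfs1 and Man1a1 within it, and C1ql3 was the highest of all rats. In rat 6 all 3 CA1 genes were above the sham range, and C1ql2 and C1ql3 were below it. In rat 8 all 3 dentate genes were below the sham range, Prox1 at 75.6%, C1ql2 at 82.8% and C1ql3 at 86.7% of the sham mean. Rat 8 was the only stimulated rat in which the 3 dentate genes lay on the same side of the sham range.

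**Figure D3:**
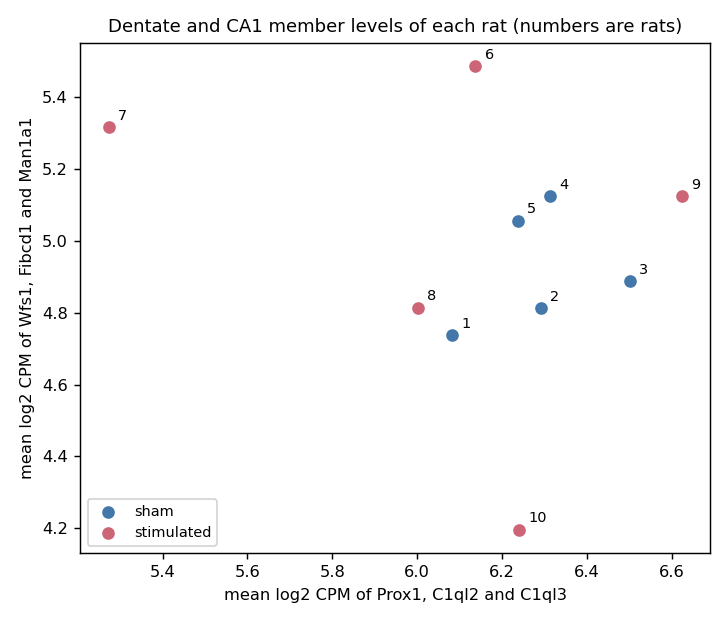
Mean log2 CPM of Prox1, C1ql2 and C1ql3 (horizontal axis) against mean log2 CPM of Wfs1, Fibcd1 and Man1a1 (vertical axis), 1 point per rat. The sham rats lie together between 6.08 and 6.50 on the dentate axis, while stimulated rat 7 (5.27) lies to the left and stimulated rats 6 (5.49) and 10 (4.20) lie above and below on the CA1 axis.

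An index of the 6 genes was the mean log2 CPM of the 3 CA1 genes minus that of the 3 dentate genes. It was -1.35, -1.48, -1.61, -1.19 and -1.18 in sham rats 1 to 5 and -0.65, 0.04, -1.19, -1.50 and -2.04 in stimulated rats 6 to 10. Rats 6 and 7 were above all sham rats, rat 10 was below all sham rats, and rats 8 and 9 lay among them. The mean index of sham rats was -1.36 ± 0.187 and the stimulated mean -1.07 ± 0.800 (SD, 5 rats per mean), and their difference of 0.29 was smaller than the SD of the stimulated rats. It was 0.02 without rat 7 and 0.54 without rat 10. The index moved through different genes in each rat, through C1ql2, C1ql3 and Man1a1 in rat 7 and through Fibcd1 in rat 10.

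Further genes of granule cells were read in the same libraries. Of 12 listed, 9 had a row and 8 passed the filter, with 2 higher and 6 lower in stimulated rats and a median log2 fold change of -0.35, which was -0.20 without rat 7. At an unadjusted p under 0.05, 1 of the 8 was higher and 0 were lower, against 6.7% and 3.16% of all tested features. These shares apply to each further list below as well. After adjustment 0 of the 8 passed in edgeR's quasi-likelihood test. Trpc6, a cation channel subunit, was at 20.8 to 38.1 CPM in sham rats and at 36.6, 90.9, 34.0, 61.9 and 34.4 CPM in rats 6 to 10. The groups overlapped, with rats 7 and 9 above the sham range (log2 fold change 0.79, SE 0.267, unadjusted p = 0.0102, adjusted p = 0.409).

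Genes named next in this list were chosen after their values were seen. Plk5, a polo-like kinase family member, was at 14.0 to 22.2 CPM in sham rats and at 12.8, 0.464, 17.6, 9.28 and 3.25 CPM in rats 6 to 10, so that 4 of 5 stimulated rats were below the sham range. Gabrd, the delta subunit of extrasynaptic GABA-A receptors, was at 27.7 to 44.4 CPM in sham rats and at 29.6, 5.48, 37.7, 20.3 and 20.3 CPM in rats 6 to 10. Both were lowest in rat 7, and their log2 fold changes of -1.10 (SE 0.542, adjusted p = 0.529) and -0.66 (SE 0.343, adjusted p = 0.547) did not pass the edgeR test. Calb1, a calcium buffer of mature granule and CA1 cells, was at 66.8 to 102.2 CPM in sham rats and at 82.2, 86.8, 96.7, 96.1 and 38.2 CPM in rats 6 to 10. Only rat 10 was below the sham range for Calb1. In rat 7, 4 of the 8 further granule cell genes were below the sham range (Plk5, Gabrd, Ablim3 and Fam163b) and 2 were above it, Trpc6 and Stxbp6, the latter at 36.0 CPM against 17.8 to 29.7 CPM in sham rats.

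Genes of immature granule cells were split as well, 3 higher and 3 lower of 6 tested (median log2 fold change -0.07). Neurod1, a basic helix-loop-helix factor needed for granule cell differentiation, was at 24.8 to 30.9 CPM in sham rats and at 28.5, 8.31, 23.9, 9.54 and 14.3 CPM in rats 6 to 10. It was below the sham range in 4 of 5 stimulated rats (log2 fold change -0.76, SE 0.282, unadjusted p = 0.0179, adjusted p = 0.420 in edgeR's test). Sox11, a factor of newborn neurons, was at 0.703 to 2.23 CPM in sham rats and at 1.18, 10.7, 2.17, 33.4 and 3.66 CPM in rats 6 to 10. Rats 7, 9 and 10 were above the sham range (log2 fold change 3.08, SE 0.790, unadjusted p = 0.00167, adjusted p = 0.376). Sox11 is listed as upregulated in the paper's own edgeR analysis of this model. Dcx, another gene of newborn neurons that was chosen after its values were seen, was at 23.3 to 29.6 CPM in sham rats. It was at 23.1, 29.3, 20.7, 21.5 and 22.7 CPM in rats 6 to 10, so that only rat 7 was not below the sham range. Its log2 fold change was -0.17 (SE 0.114, adjusted p = 0.651 in edgeR's test).

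Of 5 further CA1 genes, 4 had a row and 3 passed the filter, with 0 higher, 3 lower and 0 at an unadjusted p under 0.05 (median log2 fold change -0.36). The median of these 3 was -0.80 without rat 6, -0.23 without rat 7 and -0.14 without rat 10. Mpped1 was at 56.6 to 95.9 CPM in sham rats and at 127.4, 44.4, 66.6, 64.5 and 47.8 CPM in rats 6 to 10. Rat 6 was above the sham range and rats 7 and 10 were below it. Pou3f1, a POU-domain factor chosen here after its values were seen, was likewise above the sham range in rat 6 and below it in rats 7 and 10, with 11.4 CPM in rat 6, 3.30 CPM in rat 7 and 1.96 CPM in rat 10 against 4.54 to 9.64 CPM in sham rats. Rat 6 was thus high for Wfs1, Fibcd1, Man1a1, Mpped1 and Pou3f1 alike, and rat 10 was low for Fibcd1, Mpped1 and Pou3f1. Rat 7 had the highest index but the lowest summed level of these further CA1 genes. That level was 48.1 CPM, against 66.3 to 103.4 CPM in sham rats, so the index describes its own 6 genes alone.

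**Figure D4:**
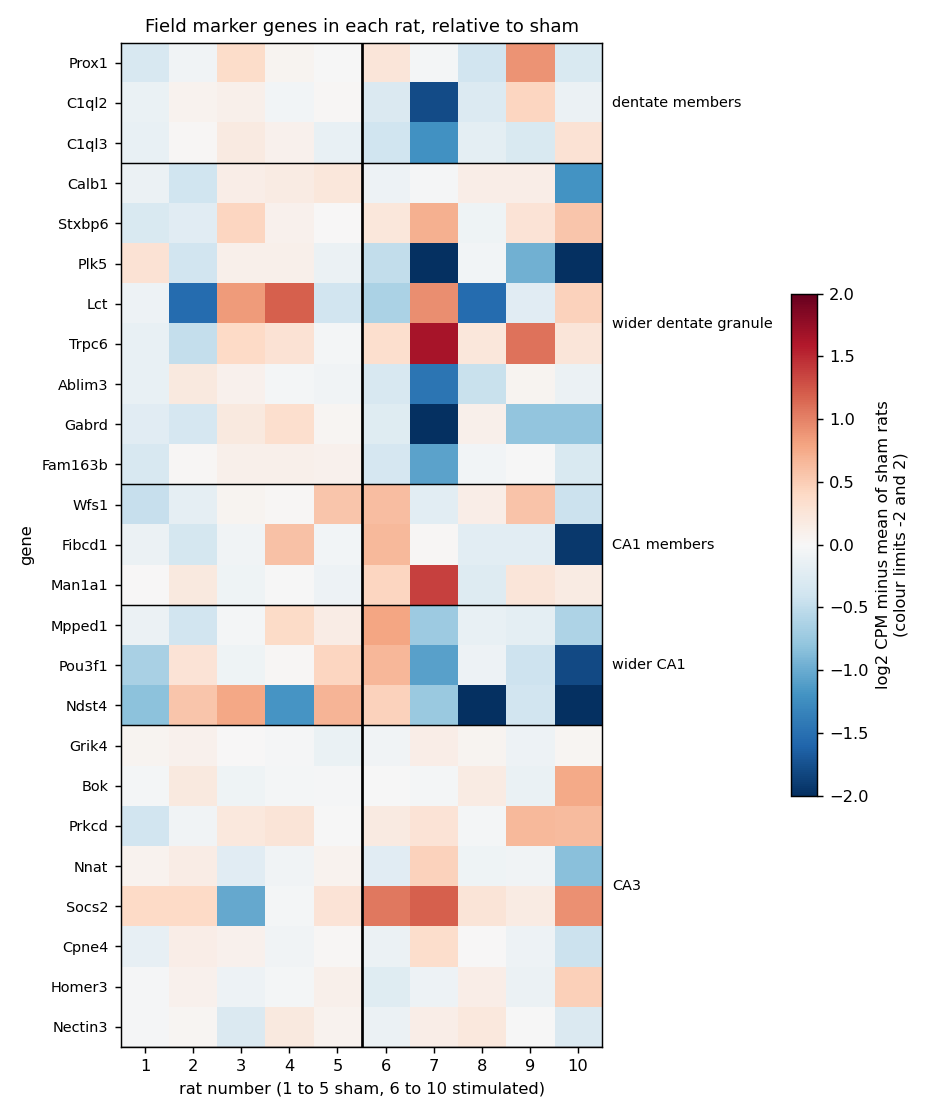
Log2 CPM of each gene (rows) in each rat (columns, sham rats 1 to 5 and stimulated rats 6 to 10) minus the sham mean of that gene, blue for lower and red for higher, with colours limited at -2 and 2. Among the granule cell genes the column of rat 7 holds more of the strong colours than that of any other rat, and rat 6 is red over the CA1 genes. Lct and Ndst4 are low genes, with 0 counts in at least 1 rat.

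Lists for the neighbouring fields were read next. Of 8 tested CA3 genes 5 were higher and 3 lower (median log2 fold change 0.03), and 1 was higher at an unadjusted p under 0.05. This was Socs2, an inhibitor of cytokine signalling, at 1.41 to 3.97 CPM in sham and 3.37 to 7.01 CPM in stimulated rats (log2 fold change 0.72, SE 0.285, adjusted p = 0.437). Grik4, the kainate receptor subunit that marks CA3, was detected at 138.4 to 160.2 CPM in sham and 141.8 to 166.8 CPM in stimulated rats. Of 6 CA2 genes 3 were higher and 3 lower with 0 at an unadjusted p under 0.05 (Pcp4 at a log2 fold change of 0.14, SE 0.144). Markers of CA3, granule cells and CA1 were thus detected in each rat. Genes of the subiculum, thalamus and choroid plexus lists read below were detected in each rat as well. Detection alone therefore does not show which fields the piece held.

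Of 6 genes of hilar mossy cells, 3 were higher and 3 lower, with 2 at an unadjusted p under 0.05, Tm4sf1 (log2 fold change 0.66, SE 0.197) and Ociad2 (0.88, SE 0.302). Of 4 tested genes of the subiculum, 4 were higher, where 52.2% of all tested features were. Fn1, the matrix protein fibronectin, had an unadjusted p = 0.000427 and an adjusted p = 0.376 in edgeR's quasi-likelihood test. Ly6g6e (log2 fold change 0.05) and Nts (0.31) held only 99 and 258 counts summed over all rats. The remaining gene, Slc17a6, had a log2 fold change of 0.22 (SE 0.249). Of 3 tested genes of the thalamus, which borders the hippocampus, 2 were higher and 1 lower, and Lef1 had an unadjusted p = 0.0192. Fn1 and Tm4sf1 were highest in rat 10, at 83.0 and 11.6 CPM, Ociad2 in rat 7, at 83.6 CPM, and Lef1 in rat 8, at 4.72 CPM. The summed level of the endothelial genes read below was highest in rat 10 as well, and a link was not tested. In no list of neighbouring fields did a gene pass adjustment in edgeR's quasi-likelihood test, in which 0% of all tested features did. The paper's own edgeR analysis of this model lists Fn1 as upregulated.

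Markers of other cell types stood apart in some of the same rats, and their part in the results was not tested. Of 6 astrocyte genes 5 were higher, 3 of them at an unadjusted p under 0.05 (Gfap, Aqp4 and Slc1a3), and the summed level of the list was 3310 to 3740 CPM in sham rats and 3340, 8602, 3439, 4467 and 7466 CPM in rats 6 to 10. Gfap, the filament protein of reactive astrocytes, was at 6467 CPM in rat 7 and 5394 CPM in rat 10. Rat 7 had the lowest C1ql2 and C1ql3, but its Fibcd1 and Calb1 were at 99.1% and 97.7% of their sham means. Rat 10 had the lowest Fibcd1 and Calb1, but its C1ql2 was within the sham range and its C1ql3 was the highest of all rats. Of 6 endothelial genes 6 were higher, 4 at an unadjusted p under 0.05 (Pecam1, Flt1, Cdh5 and Kdr), with a summed level of 127.4 to 150.2 CPM in sham and 144.4 to 275.5 CPM in stimulated rats, highest in rat 10. Of 6 choroid plexus genes 6 were higher, with Aqp1 at an unadjusted p = 0.0205 in edgeR's quasi-likelihood test. Their summed level was 3.55 to 18.1 CPM in sham and 7.73 to 35.0 CPM in stimulated rats. Kl, Kcnj13 and Clic6 held only 75, 70 and 107 counts summed over all rats, and Aqp1 held 1 count in sham rat 2. Over all tested features 52.2% were higher. Aqp4 and Pecam1 are listed as upregulated in the paper's own edgeR analysis of this model.

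Of 7 immediate early genes, which neurons induce within minutes of strong activity, 7 were higher at an unadjusted p under 0.05. In edgeR's quasi-likelihood test 0 passed adjustment, as did 0% of all tested features. The paper's own edgeR analysis of this model lists Fos, Arc, Egr1, Junb and Nr4a1 as upregulated. The summed level of the 7 genes was 123.3 to 162.8 CPM in sham rats and 174.6, 613.4, 117.5, 1578 and 627.3 CPM in rats 6 to 10. Fos was at 5.61, 106.3, 5.23, 50.3 and 61.7 CPM in these rats, against 3.26 to 5.32 CPM in sham rats. Fos was high in rats 7, 9 and 10 and close to sham levels in rats 6 and 8. C1ql2 was below the sham range in rats 6, 7 and 8 and C1ql3 in rats 6, 7, 8 and 9. Gabrd was below it in rats 7, 9 and 10. Neurod1 was below it in rats 7, 8, 9 and 10, at 29.1%, 83.8%, 33.4% and 50.2% of its sham mean. Plk5 was below it in rats 6, 7, 9 and 10, at 69.8%, 2.52%, 50.4% and 17.6% of its sham mean. The part of the immediate early genes in the results was not tested either.

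Genes of neurons in general and of the remaining cell types did not separate the groups. Of 10 genes expressed in neurons generally 5 were higher and 5 lower with 0 at an unadjusted p under 0.05 (median log2 fold change -0.03), and their summed level was 7090 to 8261 CPM in sham and 7288 to 7734 CPM in stimulated rats. Slc17a7, the glutamate transporter of excitatory synapses, had a log2 fold change of 0.03 (SE 0.0891). In rat 7, 4 of the 10 were below the sham range and 4 above it, and in rat 10, 5 were below and 2 above. Rbfox3, chosen after its values were seen, was at 183.2 to 226.7 CPM in sham rats. It was at 182.6, 124.1, 221.0, 155.3 and 177.8 CPM in rats 6 to 10 (log2 fold change -0.23, SE 0.128, adjusted p = 0.569 in edgeR's quasi-likelihood test). With libraries scaled to this list, the log2 fold change was -0.23 for C1ql2 and -0.27 for C1ql3, and none of the 6 identity genes changed sign. Of 6 interneuron genes 3 were higher and 3 lower with 0 at an unadjusted p under 0.05 (summed level 321.2 to 369.0 CPM in sham and 288.6 to 383.8 CPM in stimulated rats), and of 6 microglial genes 5 were higher with 0 at that threshold (230.2 to 282.3 and 246.1 to 341.3 CPM). Of 6 oligodendrocyte genes 6 were lower with 0 at that threshold (2531 to 3654 and 2044 to 3414 CPM), and all 6 were below the sham range in rat 7. No gene of these lists was at 0 in all rats.

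Genes whose pattern over the 10 rats was most like that of the identity genes were sought among 10715 features with a symbol and a mean of at least 50 counts. Most like the mean log2 CPM of the 3 dentate genes were Gpr17 (Pearson r = 0.954, Spearman rho = 0.855), Ablim3 (0.945, 0.891), Ipo13 (0.942, 0.927), Dennd5a (0.935, 0.624) and Id3 (0.935, 0.891). Without rats 7 and 9, which lay farthest from the median, their r was 0.519 to 0.872. Most like the mean of the 3 CA1 genes were Ireb2 (Pearson r = 0.948, Spearman rho = 0.903), Ranbp6 (0.918, 0.758), Gnl3l (0.904, 0.842), Syt11 (0.897, 0.806) and Sv2b (0.897, 0.721), with an r of 0.641 to 0.842 without rats 6 and 10. These values are the highest of many, over rats of both groups that share library depth and scaling, and are given as a description.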

How the data were processed

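Messenger RNA of the left hippocampus of 5 sham and 5 stimulated rats was sequenced in single reads of 36 cycles after selection on oligo(dT) beads. The deposited values are raw counts per transcript row, which the authors made by aligning reads to the RN4 rat genome with BWA and counting them with their own script. The methods name an Ensembl annotation while the rows carry RefSeq identifiers, and strand use and shared reads were not given in the sources used here. Symbols were matched to identifiers through the RefSeq table of build GRCr8, and positions of the count rows were not used. Unaligned reads, kept in a row of their own, were not used, and features with a summed count under 46, the 30th percentile of 32041 features, were left out.

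Groups were taken from the treatment labels, and columns were matched by rat number. The methods count fewer stimulated rats for this assay than the labels, so all 10 rats were used and each was left out in turn. Stimulated and sham rats were compared in edgeR 4.0.16 (R 4.3.3) by its quasi-likelihood test, TMM factors, no covariate and Benjamini-Hochberg adjustment over 22447 features. All p-values of single genes come from it unless another test is named. CPM and log2 CPM are on TMM-scaled library sizes, and log2 CPM used a prior count of 2. Counting error was taken as the Poisson error of a count. The scripts were tested on simulated data.

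The identity genes, the marker lists and the tests were chosen with earlier results of these data known. Named from each further list were the genes at an unadjusted p under 0.05, at most 4 by lowest p, or else the gene with the highest mean count. A gene of the further CA1 list is not reported here. Alternatives were other scalings (RLE, upper quartile, library size alone, the pan-neuronal list), other filters, other tests (edgeR likelihood ratio and exact tests, DESeq2 1.42.0, voom of limma 3.58.1, robust empirical Bayes), summed rows per symbol and a prior count of 0.5. Python 3.11.15 with numpy 2.4.6, pandas 2.3.3, scipy 1.17.1 and matplotlib 3.10.9 was used for summaries and plots.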

Additional observations from a re-analysis of the deposited data

Results flagged for a closer look

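Among the 5 rats of a group, a rat was marked where its gap to the nearest other rat exceeded 0.71 of the whole range of the group. This was examined in 34 groups of values, in which chance marks about 1 in 20 groups, or 1.7, and 3 were found. Sham rat 4 was the highest sham rat for Fibcd1, at 163.4 CPM against 104.1 CPM in the nearest, a gap of 0.7569 of the range. Stimulated rat 7 was the highest stimulated rat for Man1a1, at 23.1 CPM against 11.9 CPM in the nearest, a gap of 0.7104 of the range and thus barely past the limit. Stimulated rat 6 was the highest stimulated rat for Mpped1, at 127.4 CPM against 66.6 CPM in the nearest, a gap of 0.7321 of the range.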

How the results depend on the processing

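The number of features at an adjusted p under 0.05 was 0 in edgeR's quasi-likelihood test, 119 in its likelihood ratio test, 90 in its exact test and 33 in DESeq2, and none of the 6 identity genes was among them. The number of identity genes at an unadjusted p under 0.05 was 0, and it was 1 (Man1a1) with library size alone, with scaling to the pan-neuronal list and with DESeq2, where 9.81%, 9.37% and 10.4% of all tested features passed that threshold. With 1 rat left out it was 0 to 2, namely Man1a1 without stimulated replicate 3 or 4 (rats 8 and 9) and C1ql3 and Man1a1 without stimulated replicate 5 (rat 10), where 13.5%, 8.81% and 9.20% of all features passed. The sign of the log2 fold change turned for Fibcd1 without sham replicate 4 (0.015) and without stimulated replicate 5 (0.072), and for Prox1 without stimulated replicate 4 (-0.12).

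With 1 rat left out, the log2 fold change was -0.49 to -0.05 for C1ql2, -0.49 to -0.15 for C1ql3, -0.46 to 0.072 for Fibcd1, 0.16 to 0.63 for Man1a1, -0.12 to 0.25 for Prox1 and 0.01 to 0.31 for Wfs1, and the difference of the CA1 minus dentate index was 0.02 to 0.54. Under the other 12 settings the 6 signs were as given. No paired analysis was possible because the rat numbers of sham and stimulated rats are not shared between the groups and the replicate numbers follow only their order. With 5 outbred rats per group, differences of the size seen in single rats limit what a comparison of means can detect, and the causes of the shifts with the test and the scaling were not tested.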
